A study of Mus musculus with 12 samples.

Results

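miR-22 and miR-22* are the 2 mature microRNAs (miRNAs) cut from the opposite arms of one hairpin, and their levels were followed in mouse liver over 2 daily cycles. They were found by their names on the array, mmu-miR-22 and mmu-miR-22*, 2 of 650 entries, and both were measured on all 12 arrays. The mice were adults on a cycle of 12 h light and 12 h dark and could eat and drink at will; the labels give no strain, sex or genetic change. Zeitgeber time (ZT) counts the hours from lights on, and sampling ran at steps of 4 h between ZT18 and ZT62. Each array carried total liver RNA pooled from 2 mice of one time. The 6 clock times (2, 6, 10, 14, 18 and 22 h after lights on) thus had 2 arrays each, 24 h apart, and 6 arrays fell in the light and another 6 in the dark. For each clock time the earlier array is called cycle 1 and the later one cycle 2. The replicates are pools taken 24 h apart, so the tests below measure the spread between pools, labelling and hybridisation included, and not the spread between mice.

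A miRNA hairpin is cut by Drosha and Dicer into a short duplex, and one strand is usually kept in an Argonaute protein while the other is released and degraded. The kept strand pairs through its seed, bases 2 to 8, with messenger RNAs and represses them; the strand found at the lower level was once marked with a star. miR-22 is abundant in liver, heart and skeletal muscle and has been reported to repress Sirt1, Hdac4 and Ppara, regulators of chromatin and lipid metabolism.

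The array's names are older ones: miR-22 is now called miR-22-3p and miR-22* is miR-22-5p, and both matched the RefSeq table (build GRCm38.p6). The hairpin gene Mir22 lies on the plus strand at chr11:75463716-75463810, inside the long noncoding RNA gene Mir22hg. In the hairpin of 95 bases, shown to place the arms, capitals mark miR-22* (bases 19 to 40) and then miR-22 (bases 57 to 78). In the mature sequences of 22 bases, shown because they are the molecules measured, capitals mark the seeds.
Mir22 hairpin: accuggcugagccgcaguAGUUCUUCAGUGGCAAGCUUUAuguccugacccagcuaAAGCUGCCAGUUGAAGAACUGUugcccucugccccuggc
miR-22* (miR-22-5p): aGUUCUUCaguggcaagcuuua
miR-22 (miR-22-3p): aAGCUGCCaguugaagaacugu

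miR-22* lies at chr11:75463734-75463755 and miR-22 at chr11:75463772-75463793. Laid against each other without gaps, the arms form 17 pairs over 20 facing positions, 15 of them Watson-Crick and 2 G-U, with a longest run of 11. The seeds of the arms differ from each other. Of 1679 mature mouse miRNAs in the table, 0 others carry either seed. The longest stretch shared with another mature miRNA is 9 bases for miR-22 (with miR-3966) and 10 bases for miR-22* (with miR-146a-3p). The probes' own sequences were not used here, and signal from related RNAs was not tested.

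The libraries were liver-like by the marker miRNAs: 5 of 5 hepatocyte entries were detected on all 12 arrays and 0 of 6 striated muscle entries on any. The summed hepatocyte signal ranged from 35784 to 39620 intensity units in the light and from 35957 to 39470 in the dark. Most of that sum was miR-122, with a mean of 14.94 log2 units against 11.75 for miR-192, the next brightest. In a pooled tissue, fewer cells of a type and less of a miRNA per cell cannot be told apart. The arrays lay on 2 slides, slide 1 with ZT18 to ZT46 and slide 2 with ZT50 to ZT62, and 132 to 162 entries were detected on an array. Tests ran on the 139 entries detected on at least 6 arrays, as log2 of intensities scaled between arrays, and the number of arrays limits their precision.

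miR-22 stayed within a narrow band. On the brighter of its probes, mmu-miR-22 had a mean scaled intensity of 3511 ± 126 (SD, n = 12), with a lowest value of 3316 at ZT38, a median of 3511 and a highest of 3722 at ZT34. The highest array stood 1.12-fold above the lowest. All spots of both miR-22 probes were well above background on all 12 arrays.

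By clock time, the miR-22 arrays of cycle 1 and cycle 2 measured 3503 and 3466 at 2 h after lights on, and 3375 and 3585 at 6 h. At 10 h they measured 3722 and 3435, and at 14 h 3316 and 3368. At 18 h they measured 3520 and 3541, and at 22 h 3648 and 3653. The clock time of 14 h, early night, held the lowest pair and 22 h, late night, the highest pair mean, but single arrays at 6 h and 10 h spanned most of that range.

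miR-22* was dim. On the brighter of its probes, mmu-miR-22* measured 53.3 ± 4.63 intensity units (SD, n = 12), from 45.7 at ZT22 through a median of 53.3 to 63.9 at ZT50, a 1.40-fold range. The herpesvirus entries mcmv-miR-M23-1-5p and mcmv-miR-m88-1, for which no infection is labelled, averaged 151 and 86.8 on the same arrays, and mghv-miR-M1-2 and mcmv-miR-m22-1 were dimmer at 30.1 and 22.3. These 4 are the virus entries detected often enough to be tested, of 39 on the array, so a signal above background at this level is no proof of the RNA named. Levels of miR-22 and miR-22* are not set against each other, since intensity depends on the probe.

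By clock time, miR-22* measured 54.2 and 63.9 at 2 h after lights on, and 50.3 and 55.8 at 6 h. At 10 h the pair measured 57.6 and 54.2, and at 14 h 53.1 and 48.5. At 18 h the arrays gave 53.5 and 51.3, and at 22 h 45.7 and 51.8. From high to low, miR-22 ran 22, 10, 18, 2, 6 and 14 h by pair mean, and miR-22* ran 2, 10, 6, 18, 14 and 22 h. In that order each neighbouring pair of miR-22* overlapped, while for miR-22 the arrays of 18 h lay above those of 2 h and those of 6 h above those of 14 h without overlap. The 22 h pair was the lowest for miR-22* and the highest for miR-22.

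**Figure D1:**
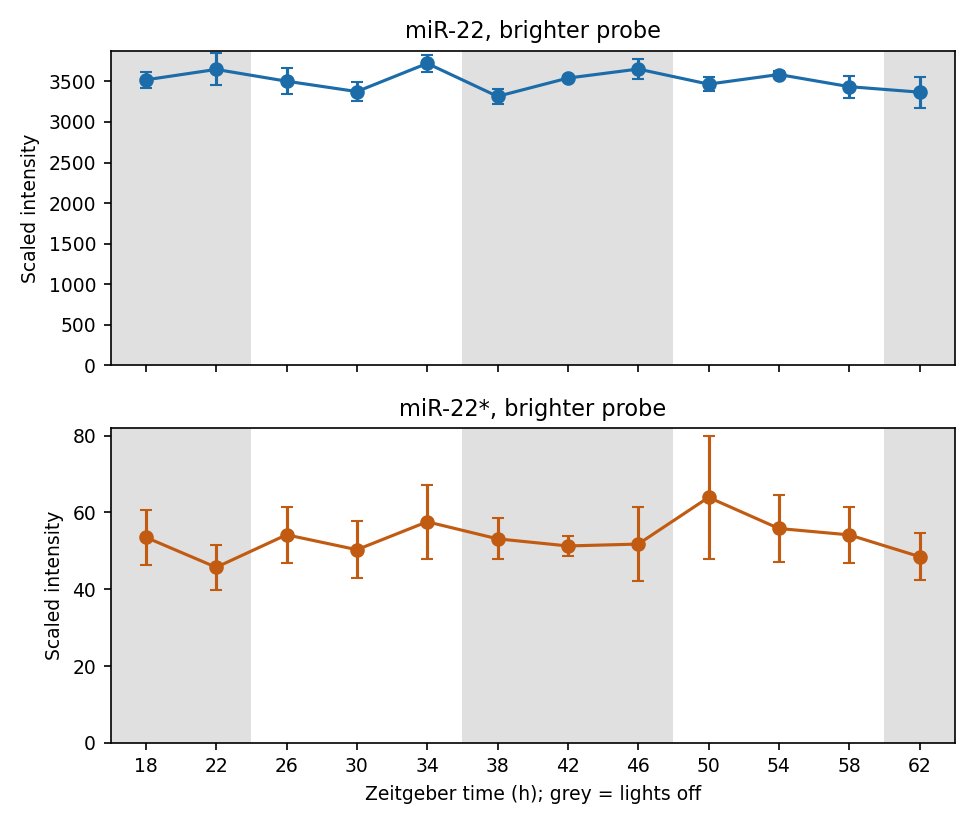
Scaled intensity of the brighter probe of miR-22 (top) and miR-22* (bottom) on each of 12 arrays against zeitgeber time, with grey bands for lights off and bars for the SD of the spots of an array. miR-22 runs between 3316 and 3722 and miR-22* between 45.7 and 63.9, and the widest bar belongs to miR-22* at ZT50.

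The precision within an array differed between the arms. Each probe had 10 spots, of which 6 to 10 were used. The coefficient of variation between spots ran from 0.674% to 5.62% over the arrays for the brighter miR-22 probe and from 5.15% to 25.1%, with a median of 13.5%, for the brighter miR-22* probe. For miR-22* it was highest at ZT50, the array with the highest value. The dimmer miR-22* probe had 0% of its spots well above background at ZT50 and 50% at ZT54, and passed the detection rule of more than 50% on 10 of 12 arrays.

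The probes of one arm moved together, more closely for miR-22. Over the 12 arrays the 2 probes of miR-22 correlated with r = 0.87 and those of miR-22* with r = 0.67. Both probes of miR-22* were lowest at ZT22. The brighter one was 0.27 log2 units above its mean at ZT50 and the dimmer one, with a mean of 31.2 ± 2.50 intensity units (SD, n = 12), was highest at ZT26 (33.6) and measured 32.1 at ZT50. These correlations describe probes that share arrays and scaling, and carry no test.

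**Figure D2:**
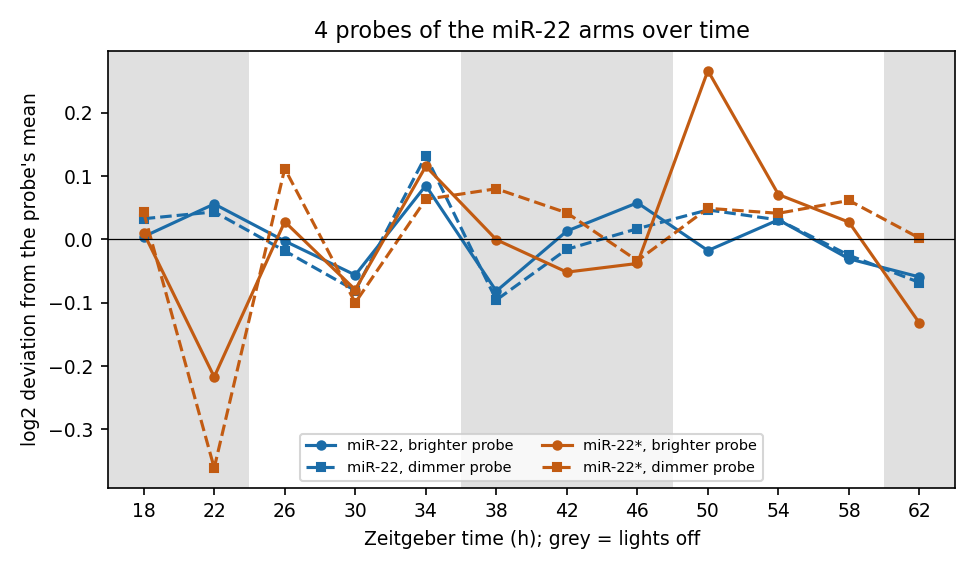
Deviation of each of 4 probes from its own mean (log2 units) against zeitgeber time, with solid lines for the brighter and dashed lines for the dimmer probe of an arm and grey bands for lights off. The miR-22 probes move together (r = 0.87); both miR-22* probes dip at ZT22, and the rise at ZT50 is 0.27 for the brighter probe.

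miR-22 varied little compared with the entries nearest in brightness, which were mostly dimmer. The SD of miR-22 over the 12 arrays was 0.052 log2 units. The median was 0.061 for the 20 entries nearest in mean intensity, 3 of which had a lower SD. These entries reached down to a mean of 9.64 log2 units (miR-29c), against 11.78 for miR-22. The SD of miR-22* was 0.12 against a neighbours' median of 0.11, with 11 of 20 lower. Among the 109 tested entries that never lay at the intensity floor of 22.2, the median SD was 0.095.

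**Figure D3:**
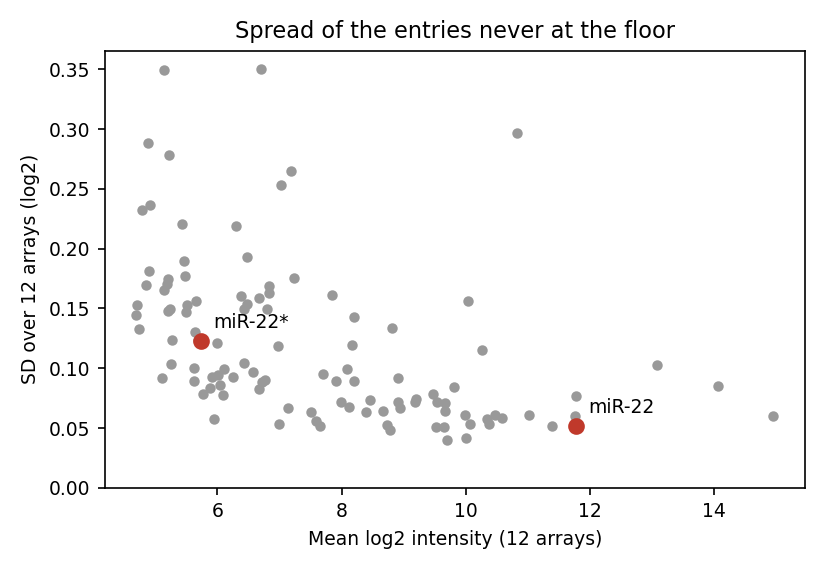
SD over 12 arrays against mean log2 intensity for the 109 tested entries never at the floor (grey), with both arms in red. miR-22 (0.052) lies among the least variable entries and miR-22* (0.12) among others of its brightness.

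The series asks whether liver miRNAs follow the day, so the first test was for a 24-h rhythm. The fitted peak-to-trough fold of miR-22 was 1.04, with an upper 95% limit of 1.13 and a fitted maximum 23.7 h after lights on. For miR-22* the fold was 1.11, with an upper limit of 1.35 and a maximum 5.78 h after lights on. Neither passed limma's F test with Benjamini-Hochberg adjustment over the 139 entries (adjusted p = 0.957 for each); the background was 0% of entries past an adjusted p of 0.05 and 3.6% at an unadjusted p under 0.05. In the order of p-values miR-22 stood at 70 and miR-22* at 37 of 139.

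The size of the fitted 24-h range depended on the processing, and under none of the settings run did it pass. For miR-22 it was 0.052 log2 units, but 0.42 with all-probe scaling, 0.13 with the background correction normexp, 0.11 after quantile normalization and 0.024 with Feature Extraction's own signal per entry; it was 0.098 without ZT34 and 0.034 without ZT38. For miR-22* it was 0.15, but 0.74 with normexp and 0.28 with all-probe scaling. The limits above thus cover the spread between arrays under 1 processing only. The median range of all entries was 0.11 as processed here, 0.39 with all-probe scaling and 0.60 with normexp.

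A 12-h rhythm was tested beside the 24-h one. miR-22 varied by a fitted fold of 1.07 between peak and trough (95% limit 1.14), the 10th smallest p of 139 but an unadjusted p of 0.0557 and an adjusted p of 0.622 in limma. For miR-22* that fold was 1.06 (95% limit 1.32), with an adjusted p of 0.935. Here too 0% of entries passed after adjustment, and 5.76% had an unadjusted p under 0.05. The fitted range of miR-22 (0.095 log2 units) was 0.036 with Feature Extraction's signal, 0.039 with normexp, 0.046 with unscaled arrays and 0.21 with all-probe scaling, and ran from 0.064 without ZT34 to 0.12 without ZT58. That of miR-22* (0.083) was 0.031 without ZT50 and 0.16 without ZT62, and 0.71 with normexp, 0.21 after quantile normalization, 0.17 with Feature Extraction's signal, 0.15 with the dimmer probe, 0.13 with unscaled arrays and 0.055 with outlier spots kept.

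Light and dark were then compared, which in nocturnal mice also separates rest from feeding. miR-22 did not differ detectably: the light mean was 11.78 ± 0.05 log2 units and the dark mean 11.78 ± 0.06 (SD, n = 6 each). The dark over light fold was 0.998 with a 95% interval of 0.952 to 1.05, and the difference was -0.0032 ± 0.030 log2 units (SE). In intensity units the light arrays ran from 3375 through a median of 3485 to 3722 and the dark arrays from 3316 through 3530 to 3653, so the groups overlapped almost throughout.

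miR-22* was lower in the dark before adjustment for the number of entries. The light mean was 5.80 ± 0.12 log2 units and the dark mean 5.66 ± 0.09 (SD, n = 6 each). The dark over light fold was 0.906 (95% interval 0.828 to 0.990), and on this brighter probe 0 of 6 dark arrays stood above the light mean. The light arrays ran from 50.3 through a median of 55.0 to 63.9 intensity units and the dark arrays from 45.7 through 51.5 to 53.5. The groups overlapped, since the light ZT30 array (50.3) lay below 4 of the dark ones. In limma the unadjusted p was 0.0327, the 8th smallest of 139, and the adjusted p was 0.568, so the difference did not pass.

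Of the 139 entries 0% passed between light and dark after adjustment, 7.91% had an unadjusted p under 0.05, and in 0.719% the light and dark arrays did not overlap. The dimmer miR-22* probe differed by -0.076 log2 units (limma, adjusted p = 0.74), against -0.14 for the brighter one. For the dimmer probe 3 of 6 dark arrays stood above the light mean. On slide 1 alone, with 3 light and 5 dark arrays, the brighter probe differed by -0.081; slide 2 held 1 dark array. Scaled on all probes, most of which lie near background, the sign turned for both arms (0.43 for miR-22 and 0.29 for miR-22*), as did the median of all entries (from -0.023 to 0.38).

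**Figure D4:**
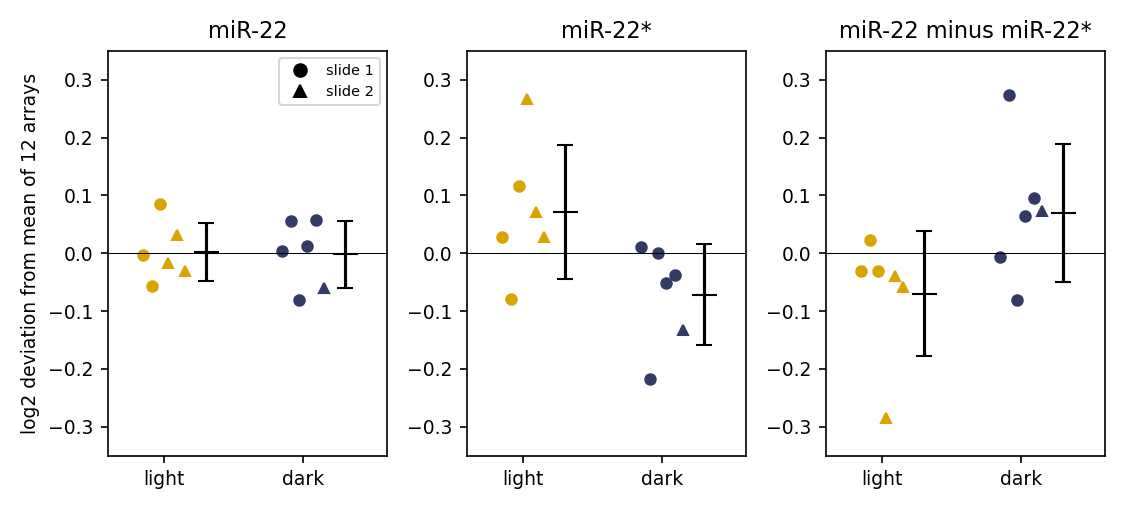
Deviation from the mean of 12 arrays (log2 units) in the light and in the dark for miR-22, miR-22* and their difference, 6 arrays a group, with circles for slide 1, triangles for slide 2 and bars for the group mean ± SD. The light and dark arrays of miR-22 overlap. On the brighter probe, the one drawn, the 6 dark arrays of miR-22* lie below the light mean. The difference has its extremes at ZT22 and ZT50.

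Whether the arms changed unequally was asked of the difference between them on each array, log2 miR-22 minus log2 miR-22*, which does not move when all values of an array are divided by one factor. The difference was 0.14 log2 units larger in the dark, a 1.10-fold shift, with 5 of 6 dark arrays above the light mean. Its deviation from the mean of 12 arrays ran from -0.28 to 0.023 in the light and from -0.081 to 0.27 in the dark, and the groups overlapped. An exact two-sided permutation test over the 924 splits into 6 and 6 gave p = 0.039, and 0.156 after Benjamini-Hochberg adjustment over the 4 permutation tests made on the arms. The largest value belonged to ZT22 and the smallest to ZT50.

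The size of that difference between light and dark leaned on ZT22 and ZT50. Without ZT50 it was 0.097 (exact permutation p = 0.0952) and without ZT22 0.099 (exact permutation p = 0.0866). Leaving out any other array gave 0.13 to 0.17. The unadjusted p stayed under 0.05 without ZT18, ZT30 or ZT38; without any 1 of the remaining 7 it was 0.0541 to 0.0779 although the difference (0.13 to 0.15) was close to that over 12 arrays. With the dimmer probes of both arms the difference was 0.047 (exact permutation p = 0.727), and on slide 1 it was 0.082 (exact permutation p = 0.375). A 24-h rhythm of the arm difference had a fold of 1.12 and a permutation p of 0.4 (100000 draws), 0.767 after adjustment.

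With the scaling used here, no correlation between the arms passed a test. Over 12 arrays the Pearson r was 0.054 (permutation p = 0.87, two-sided, 100000 draws) and Spearman's rho 0.18 (permutation p = 0.575); the adjusted values were 0.87 and 0.767. Without ZT34 and ZT38, the arrays farthest from the median of miR-22, r was -0.13 (permutation p = 0.741). On the 8 arrays of slide 1 it was 0.038 (permutation p = 0.934), and slide 2 has too few arrays for a value. Without ZT50 and ZT22, the arrays at the ends of the miR-22* range, r was 0.58 and rho 0.53 over 10 arrays, a value chosen after seeing the data and given with no test. Over 12 arrays r also varied with the probes paired. It was 0.41 for the dimmer miR-22 probe with the brighter miR-22* probe. For the brighter miR-22 probe with the dimmer miR-22* probe it was -0.26, both given with no test.

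The correlation also depended on the processing between arrays. It was 0.97 (permutation p = 1e-05, the smallest the draws can give) when arrays were scaled on all probes, -0.68 (permutation p = 0.0193) after quantile normalization, -0.84 (permutation p = 0.0513) with the background correction normexp, and 0.32 (permutation p = 0.313) without scaling. Between dark and light, the median difference of all entries was 0.38 with all-probe scaling and -0.36 with normexp, against -0.023 with the scaling used. The sign of r thus differed between ways of scaling, and no shared course of the arms is read from it.

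**Figure D5:**
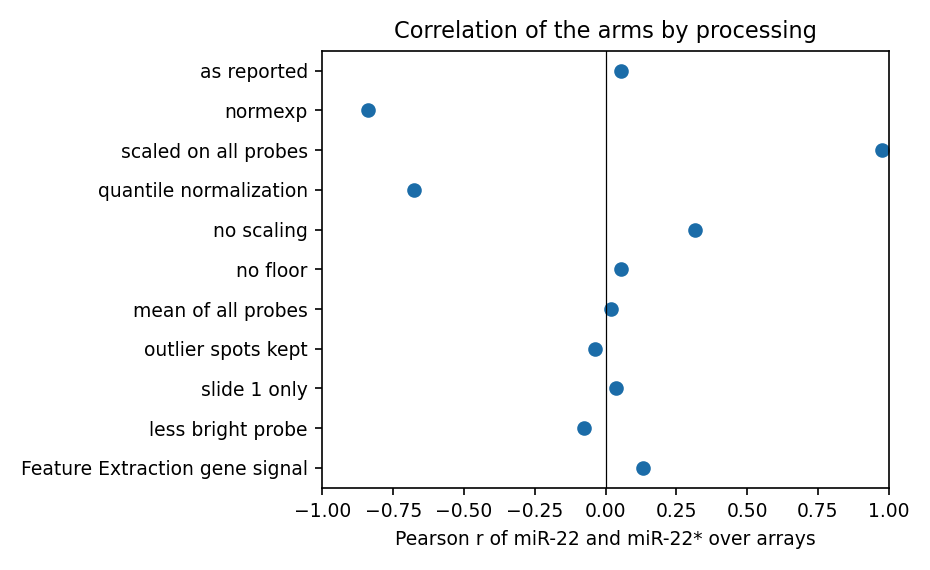
Pearson r of miR-22 and miR-22* over arrays, as reported (0.054) and under each other processing. Values run from -0.84 (normexp) to 0.97 (scaled on all probes). With the dimmer probes of both arms (-0.077), no floor (0.054) or outlier spots kept (-0.036), r lies near 0. Pairings of a brighter with a dimmer probe are not shown.

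Other pairs of arms, matched by name, gave r values on either side of that of miR-22. Whether each named pair comes from a single hairpin was not checked. Of 9 such pairs with both arms tested, 7 gave a correlation. In the remaining pairs (miR-31 and miR-378) the star arm lay at the floor on all 12 arrays. The r values ran from -0.091 for miR-30e to 0.83 for miR-142, a leukocyte miRNA, with a median of 0.30 over 12 arrays each. miR-142-5p lay at the floor on 3 arrays, and over the 6 pairs never at the floor the median was 0.19. miR-199a of mesenchymal cells (0.77) and miR-140 (0.41) came next, then the endothelial miR-126 (0.30) and miR-30a (0.070), above miR-22 (0.054). These pairs share arrays and scaling.

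Any other daily shape was covered by an F test over the 6 clock times. The clock-time means of miR-22 spanned 1.09-fold, with 11.71 ± 0.02 log2 units (SD, n = 2) at 14 h as the lowest and 11.83 ± 0.0013 (SD, n = 2) at 22 h as the highest. Those of miR-22* spanned 1.21-fold, with the lowest mean at 22 h and the highest, 5.88 ± 0.17 (SD, n = 2), at 2 h. In limma neither passed (adjusted p = 0.806 for both), with 0% of the 139 entries past the threshold and 4.32% at an unadjusted p under 0.05. The span of miR-22 (0.13 log2 units) was 0.79 with all-probe scaling and 0.048 with Feature Extraction's signal, and that of miR-22* (0.27) was 1.197 with normexp and 0.50 with all-probe scaling. Within a clock time the pooled SD of single arrays was 0.043 for miR-22 and 0.11 for miR-22*. The SD of the clock-time means, each over 2 arrays, was 0.043 and 0.098. Means of 2 arrays vary less by noise than single arrays do, so the SDs are not directly comparable.

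Neither arm passed the test between the cycles, which the slides confound in part. All 4 arrays of slide 2 were of cycle 2, and only the pairs at 18 h and 22 h lay on 1 slide. miR-22 had a cycle 2 over cycle 1 fold of 0.999 (95% interval 0.956 to 1.04), higher in 4 of 6 pairs, and miR-22* a fold of 1.03 (95% interval 0.928 to 1.15), higher in 3 of 6 pairs. The adjusted p in limma was 1 for miR-22 and 0.867 for miR-22*; 0% of entries passed and 3.6% had an unadjusted p under 0.05. With the slide in the model the cycle difference was 0.0053 log2 units for miR-22 and 0.059 for miR-22*. The dark minus light difference of miR-22* was -0.09 log2 units in cycle 1 and -0.20 in cycle 2, and the interaction did not pass (limma, adjusted p = 0.951). All light arrays of cycle 2 lay on slide 2, with 1 dark array, so the cycle 2 value and the interaction mix slide with light.

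The entries most like each arm were named by Pearson r over the 12 arrays, among 108 others never at the floor. Most like miR-22 were miR-322 (r = 0.89), let-7d (0.86), let-7b (0.83), let-7c (0.82) and miR-23b (0.81); the let-7 miRNAs are known to restrain growth genes. miR-22* stood at place 88 of 108 by that measure. Most like miR-22* were miR-202-3p (0.92), miR-1904 (0.86), miR-690 (0.86), miR-350 (0.82) and miR-212 (0.81), the last a miRNA induced by cAMP signalling in neurons. miR-22 stood at place 72 of 108.

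The 5 entries most like miR-22* were all highest at ZT50, and 3 of them (miR-202-3p, miR-350 and miR-212) were lowest at ZT22. miR-202-3p was 0.56 log2 units above its mean at ZT50 and 0.45 below it at ZT22 (-0.45), a wider swing than that of miR-22*. The ZT50 array, on slide 2, had the fewest probes detected, 160 against 182 to 232 on the others. The other slide 2 arrays had 182, 201 and 184, and those of slide 1 had 196 to 232. Outlier spots made up 6.12% to 6.94% of a slide 2 array and 3.82% to 5.49% of a slide 1 array. The 145 detected entries of ZT50 and its 17.6% of spots well above background lay within the range of the other arrays. The part of this array or its slide in the result was not tested. These r values are descriptions over arrays that share scaling, with medians over all 108 of 0.38 for miR-22 and 0.29 for miR-22*.

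Other liver miRNAs tied to lipid and glucose metabolism gave the setting for miR-22. Of 26 listed entries 21 could be tested, and 0 passed after adjustment in limma for any of the 5 tests. Their median peak-to-trough fold over 24 h was 1.06, against 1.08 for all 139 entries. Between dark and light 6 had a higher and 15 a lower mean in the dark. Their median difference was -0.016 log2 units, against -0.023 for all 139 entries, where 41 were higher and 92 lower.

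A few members of that list had an unadjusted p under 0.05 in limma, and with all 12 arrays 0 passed after adjustment. They were 2 of 21 in each of the 24-h, clock-time and 12-h tests and 1 of 21 between dark and light. Over all 139 entries the shares were 3.6%, 4.32%, 5.76% and 7.91%. With 1 or 2 members a test, nothing about the list is read from these counts. miR-148a, enriched in hepatocytes, differed by -0.076 between dark and light (adjusted p = 0.437 in limma). Its fitted 24-h and clock-time ranges were 0.11 and 0.14 log2 units (limma, adjusted p = 0.914 and 0.806). miR-143 had fitted 24-h and clock-time ranges of 0.42 and 0.55 log2 units (limma, adjusted p = 0.914 and 0.806), and without the ZT46 array it passed the clock-time test. It is also a mesenchymal marker; the summed signal of that list ran from 174 to 206 intensity units in the light and from 172 to 280 in the dark, and its part in the result was not tested. miR-107 and miR-27a had 12-h ranges of 0.16 and 0.17 (limma, adjusted p = 0.622 each), against 0.095 for miR-22.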

How the data were processed

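miRNAs in pooled liver RNA were measured on one-colour Agilent arrays. The deposited values are spot intensities, processed by Feature Extraction 10.7.3.1 per the file headers; the submitters' processing notes name 9.5.3.1. The deposited matrix equals these intensities for 100% of spots on each array, linear and uncentred, with array medians from 0.661 to 4.12. A genome build is not given in the sources used here.

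Control spots (715) and outlier spots (3.82% to 6.94% of an array) were left out, 0 spots were saturated, and spots of a probe were averaged. Arrays were scaled to the 75th percentile of the 157 probes detected on all 12 arrays, floored at 22.2 units and put on a log2 scale. An entry is its brightest probe. limma 3.58.1 in R 4.3.3 fitted each test to 139 entries with an intensity trend, adjusted by Benjamini-Hochberg. It was also run on simulated data with independent noise per entry, which does not show how it behaves when entries vary together. The files hold no mean signal, so normexp (offset 50) used median signals. Named entries were both arms, the 5 entries most like each arm, arm pairs, and list members with an unadjusted p under 0.05. Cell type markers gave 2 of 3 red cell, 4 of 6 leukocyte, 2 of 2 endothelial, 3 of 5 mesenchymal and 0 of 4 neuronal entries detected on all arrays. Members and lists were chosen with earlier results of these data known.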

Additional observations from a re-analysis of the deposited data

Results flagged for a closer look

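In 18 overlapping groups of arrays checked for a sample far from the others, 2 arrays stood apart, and chance marks about 1 in 20 groups. Both concern the difference of the arms, log2 miR-22 minus log2 miR-22*, whose level depends on the probes. Among the 6 light arrays ZT50 was lowest at 5.761, with the next at 5.99. Among the 6 arrays of cycle 1 ZT22 was highest at 6.318, with the next at 6.07. miR-22* was highest of all arrays at ZT50 and lowest at ZT22, and neither array was set apart for miR-22 or miR-22* alone.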

How the results depend on the processing

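In limma neither arm passed in any of the 5 tests under any processing run. The dark minus light difference of miR-22 (-0.0032 as reported) changed sign to 0.045 with normexp, 0.43 with all-probe scaling, 0.069 after quantile normalization, 0.058 with unscaled arrays, 0.0011 on slide 1 and 0.0021 with Feature Extraction's own signal per entry; that of miR-22* turned to 0.29 with all-probe scaling. The cycle difference of miR-22* turned to -0.49 with all-probe scaling and -0.0071 with quantile normalization, and that of miR-22 to 0.0053 with the slide as a block and on slide 1. The arm difference between dark and light lost its unadjusted call with normexp (0.498), the mean of all probes (0.109), slide 1 (0.082), the dimmer probes (0.047) and Feature Extraction's signal (0.109), and kept it after quantile normalization (0.23) and with outlier spots kept (0.16). The arm correlation turned to -0.84 with normexp, -0.68 with quantile normalization, -0.036 with outlier spots kept and -0.077 with the dimmer probes, and rose to 0.97 with all-probe scaling. The causes were not tested.

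Counts past the threshold were 1 with normexp (miR-451) for the 24-h, 12-h and clock-time tests, and 2 on slide 1 for clock time (miR-362-3p and miR-680). Leaving out 1 array at a time gave 0 to 2 entries between light and dark (2 without ZT30, miR-101b and miR-1895) and 0 to 7 for clock time (7 without ZT26, all but 1 a mouse miRNA; miR-143 without ZT46, miR-362-3p without ZT54 and miR-680 without ZT58). Of these entries miR-451, miR-101b, miR-1895, miR-143 and miR-296-5p were never at the floor as processed here. The others lay there on 9 (miR-362-3p), 10 (miR-197) or 11 of 12 arrays, so a call of those others rests on 1 to 3 arrays. The differences ran from -0.015 to 0.014 for miR-22 between dark and light, from -0.020 to 0.021 between cycles, from 0.097 to 0.17 for the arm difference, and the arm correlation from -0.12 to 0.31. Without a filter, the 201 entries not at the floor on every array were tested. The dimmer-probe and Feature Extraction alternatives were chosen after seeing the data. The low signal of miR-22* limits its precision.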
